A study of Oryctolagus cuniculus with 4 samples.

Results

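The genes described here are CASQ1, CASQ2 and SLN, which encode the calcium-storage proteins calsequestrin 1 and calsequestrin 2 and the calcium-pump inhibitor sarcolipin. They were chosen by the log2 ratios between these 4 arrays in earlier results of the same data, so their levels are given as a description and no test is attached to them. All probes whose RefSeq accession belongs to 1 of these genes were taken: 5 probes of CASQ1 (NM_001082268), 3 of CASQ2 (NM_001101691) and 5 of SLN (NM_001082387). These are 3 of 1489 genes that could be named on the array and 13 of 43603 probes.

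The RNA came from the ligamentum flavum, an elastic ligament that spans adjacent vertebral arches, in male rabbits aged 34 weeks. Per the labels, rabbits aged 18 weeks had the muscle over L3-4 resected and L2-3 and L4-5 fused posterolaterally with instrumentation, and tissue was taken 16 weeks later. There were 4 groups. L3/4, the free level between the fusions, is labelled as intervertebral stress concentration (ISC) and has a control taken from L3/4. L2/3 and L4/5 are labelled as fused and have a control taken from those levels. A single-colour array was run for each, 1 per group. The text of the surgery is the same on all 4 samples. Whether the control animals were operated on, whether animals were pooled and whether L2/3 and L4/5 were pooled is not stated in the labels. At the ISC level the muscle over the ligament was itself removed, so local surgery and stress cannot be told apart.

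In striated muscle, calcium is held in the sarcoplasmic reticulum bound to calsequestrin, is released through ryanodine receptors when the fibre is excited, and is returned by the pump SERCA. CASQ1 is the calsequestrin of fast skeletal fibres and is also made in slow fibres. CASQ2 is the calsequestrin of heart and slow fibres, and it also occurs in some smooth muscle. SLN is a short membrane peptide that binds SERCA and lowers its calcium uptake. It is found in atrial heart muscle and in skeletal muscle. Ligament fibroblasts are marked by COL1A2, LUM, DCN and TNMD.

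Levels are log2 signal relative to the 75th percentile of the same array, so a level of 0 is that percentile itself. A probe is called measured where the scanner software marked it as well above background. That mark was carried by 67.9% of probes at the ISC level and 59.6% in the L3/4 control, the highest and lowest shares. A ratio is the difference of 2 levels on the log2 scale, and 2-fold serves as a fixed size for counting, not as a test. With 1 array per group there is no spread between animals, no error of a group and no p-value. The errors given below are the scanner software's own estimates for a spot, carried over to the ratio, or the SD of repeated spots, and they cover 1 array only. All arrays lay on 1 slide. Levels of different probes are not compared with each other.

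CASQ1 was high in the L2/3 and L4/5 control and low or undetected on the other 3 arrays. Its brightest probe, A_04_P001201, gave a processed signal of 11.9 at the ISC level and 8.24 in the L3/4 control. It gave 1.47 at the fused levels, which was not well above background, and 514 in the L2/3 and L4/5 control. The array that stands out is therefore a control, and the other control lay with the ISC level. After scaling, the levels were −2.98 at the ISC level, −2.70 in the L3/4 control, −5.86 at the fused levels and 2.82 in the L2/3 and L4/5 control. All 5 probes gave the same order of the arrays, and at the fused levels none of the 5 was well above background.

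CASQ2 had another pattern: it was about as high in one control as in the other and low at both operated levels. Its brightest probe, A_04_P001543, gave a signal of 9.72 ± 1.62 (software error of the spot) at the ISC level and 47.6 ± 4.92 in the L3/4 control. It gave 13.9 ± 2.0 at the fused levels and 46.2 ± 4.89 in the L2/3 and L4/5 control. With this probe both operated levels gave lower signals than both controls, on 1 array each. The gene was chosen for such differences, so nothing is read from that separation. The scaled levels were −3.27 at the ISC level, −0.17 in the L3/4 control, −2.62 at the fused levels and −0.65 in the L2/3 and L4/5 control. Only this probe was well above background on all 4 arrays. A_04_P001542 was well above background in the L3/4 control alone, with a signal of 3.09 at the ISC level, 13.8 in the L3/4 control, 1.95 at the fused levels and 9.40 in the L2/3 and L4/5 control. A_04_P001541 was not well above background on any array. The values of CASQ2 thus rest on 1 probe, with a dimmer probe in the same order of operated levels against controls.

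SLN was well above background with all 5 probes on all 4 arrays and showed 3 steps. Its brightest probe, A_04_P003029, gave a signal of 249.9 at the ISC level and 718 in the L3/4 control. It gave 254 at the fused levels and 6316 in the L2/3 and L4/5 control. Both operated levels were thus alike and lowest, the L3/4 control lay between, and the L2/3 and L4/5 control was highest. The scaled levels were 1.41 at the ISC level, 3.75 in the L3/4 control, 1.57 at the fused levels and 6.44 in the L2/3 and L4/5 control. Probe A_04_P003026 is spotted 5 times per array, which shows the spread of repeated spots. Its spots ranged from 79.6 to 96.3 at the ISC level, from 472 to 578 in the L3/4 control, from 68.2 to 78.7 at the fused levels and from 1515 to 1756 in the L2/3 and L4/5 control. The SD of log2 signal over these spots lay between 0.08 and 0.11, far below the steps between the controls and the operated levels.

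**Figure D1:**
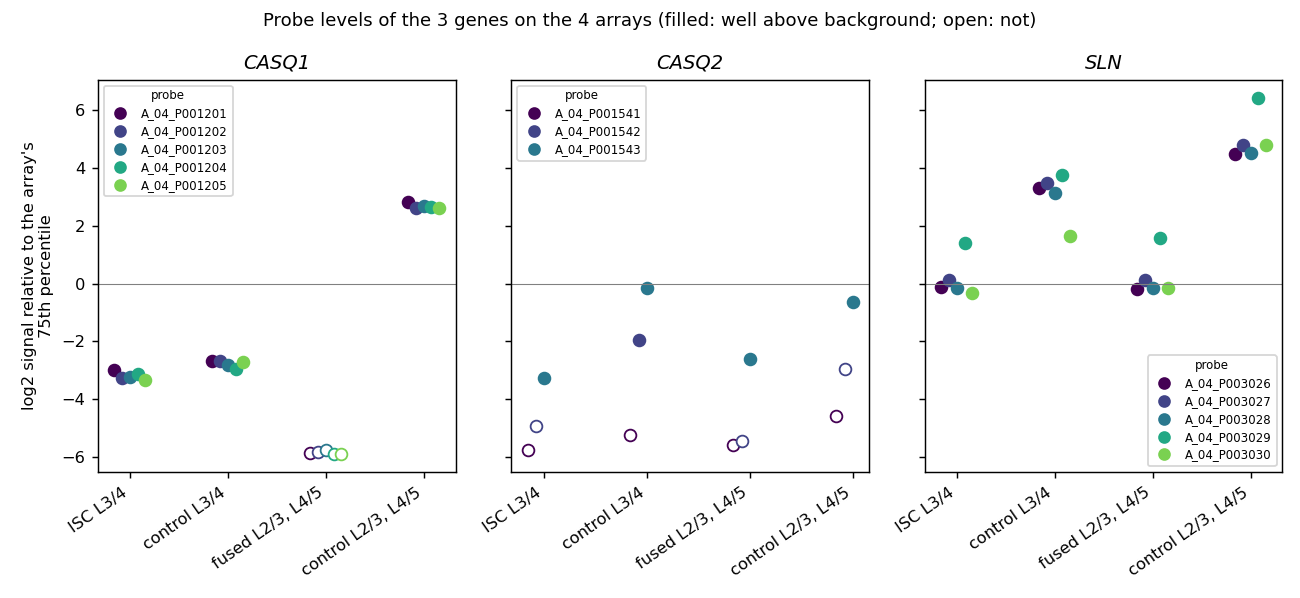
Level of each probe of CASQ1, CASQ2 and SLN (y axis, log2 signal relative to the 75th percentile of the array) on the 4 arrays (x axis). Filled points were well above background and open points were not. CASQ1 is high in the L2/3 and L4/5 control, at 2.82 for its brightest probe, and all 5 SLN probes are lower at the ISC and fused levels than in either control.

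Some neighbours in these orders do not stand apart beyond the technical spread, and for others the gap is small. For SLN the ISC level and the fused levels differed by −0.16 on the log2 scale with the brightest probe, with a software error of 0.20, and the 5 probes ranged from −0.17 to 0.07. For CASQ1 the ISC level was at −0.29 to the L3/4 control, with a software error of 0.34 and a range of −0.61 to −0.17 over the 5 probes. The direction of that CASQ1 difference depends on the scaling between arrays, since the unscaled signal at the ISC level was 1.44 times that in the L3/4 control. For CASQ2 the L3/4 control was at 0.49 to the other control, with a software error of 0.21, while the unscaled signals were in a ratio of 1.03. The ISC level of CASQ2 was at −0.65 to the fused levels, with a software error of 0.32.

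Setting the ISC level beside its own control addresses a ligament under concentrated stress together with the local muscle resection. CASQ2 and SLN were lower at the ISC level, and CASQ1 was not 2-fold apart. The ratio of CASQ2 was −3.11 ± 0.28 (software error), which is 8.60-fold lower, and that of SLN was −2.33 ± 0.20, or 5.04-fold lower. Among 966 named genes well above background on both arrays, CASQ2 had the 3rd lowest ratio and SLN the 11th lowest. With normexp background correction, which here also added an offset of 50 to every spot signal, CASQ2 was at −1.10. Such an added constant narrows the ratios of dim probes. The 5 SLN probes ranged from −3.43 to −1.99, so all were lower but the size depends on the probe. Of the 3 genes, 2 were lower by 2-fold or more, beside 10.5% of all 13731 features (genes or unnamed transcripts) measured in this comparison and a median of −0.16 over those features. The genes were chosen for such differences, so nothing is read from that count or from their ranks.

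Setting the fused levels beside their own control addresses a ligament across an instrumented fusion. All 3 genes were lower at the fused levels. CASQ1 was at least 86.7-fold lower by its brightest probe, a bound that sets the control against the lowest signal that counted as above background on the fused array, and its 5 probes gave bounds of 75.5-fold to 86.7-fold. SLN was at −4.87 ± 0.20, or 29.2-fold lower, with its 5 probes between −4.95 and −4.67. CASQ2 was at −1.97 ± 0.26, or 3.91-fold lower, on its 1 measured probe, but at −0.72 with normexp background correction, under 2-fold. Under that setting the bound of CASQ1 dropped to at least 11.0-fold lower. Of 13715 features measured here, 9.15% were lower by 2-fold or more, and the median was −0.13.

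Set against the control of the other levels, CASQ2 and SLN stayed lower by at least 2-fold at both operated levels, and CASQ1 did not at the fused levels. These pairs share arrays with the comparisons above and are given beside them, not as further evidence. Against the L2/3 and L4/5 control the ISC level was at −5.80 for CASQ1, −2.62 for CASQ2 and −5.03 for SLN, where 5.03% of 14112 features were lower by 2-fold or more. With normexp background correction CASQ1 was at −3.31 in that pair. Against the L3/4 control the fused levels were at −2.46 for CASQ2 and −2.17 for SLN, where 12.9% of 13353 features were lower by 2-fold or more. CASQ1 was at least 1.89-fold lower in that pair, a bound under 2-fold. With normexp background correction CASQ2 was at −0.91 in each of these pairs, under 2-fold. With the main scaling CASQ2 and SLN therefore lay at least 2-fold below both controls at each operated level, as did 0.487% of the 12742 features measured on all 4 arrays. Among the 886 named genes measured on all 4 arrays 6 did so, and SLN and CASQ2 had the widest gaps, with −2.17 and −1.97 as their smallest difference from a control. Both were chosen for such differences, so nothing is read from their place among the 6. The other 4, named after their values were seen, were ITIH6, RPRD1A, ENO3 and ITIH2. They include ITIH6 and ITIH2, of the inter-alpha-trypsin inhibitor heavy chain family, and ENO3, the muscle enolase.

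The ISC level and the fused levels, set directly against each other, did not differ by 2-fold in either gene measured on both, SLN at −0.16 and CASQ2 at −0.65. In that pair 14.8% of 14564 features were apart by 2-fold or more in either direction. The ISC level exceeded the fused levels in CASQ1 by at least 1.55-fold, a bound under 2-fold. Of the 5 CASQ1 probes, all were well above background at the ISC level and 0 at the fused levels.

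The controls of the different lumbar levels differed in 2 of the 3 genes. The control of L3/4 was at −5.52 to the L2/3 and L4/5 control for CASQ1, or 45.8-fold lower, and at −2.69 for SLN, or 6.47-fold lower, while CASQ2 was at 0.49. With normexp background correction CASQ1 was at −2.94. Of 13137 features, 9.2% were lower by 2-fold or more in the L3/4 control. The CASQ1 and SLN ratios at either operated level therefore depend on which control is used, by 5.52 and 2.69 on the log2 scale with these probes.

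The SLN probes split in how far apart they put the controls. A_04_P003029 and A_04_P003030 gave −2.69 and −3.13 for the L3/4 control against the L2/3 and L4/5 control. A_04_P003026, A_04_P003027 and A_04_P003028 gave −1.17, −1.31 and −1.39. The same 3 probes gave the lower ratios of the ISC level to the L3/4 control, −3.43, −3.37 and −3.28, against −2.33 and −1.99 for the other two. In the comparisons with the L2/3 and L4/5 control the 5 probes lay closer together, between −4.95 and −4.67 for the fused levels and between −5.12 and −4.60 for the ISC level. The same split was present in those pairs, with A_04_P003029 and A_04_P003030 the lowest, but it was smaller. All 5 are assigned to the same transcript accession, and the cause was not tested.

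**Figure D2:**
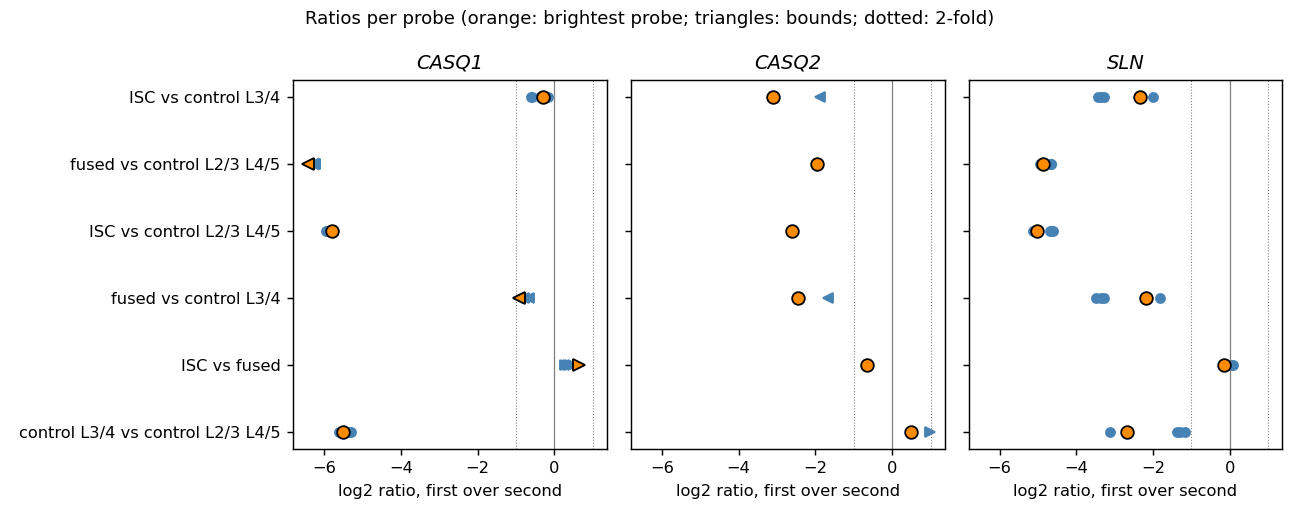
Log2 ratio of each probe (x axis, first array over second) in the 6 pairs of arrays (y axis), with the brightest probe of each gene in orange, bounds as triangles and 2-fold as dotted lines. CASQ2 is at −3.11 and −1.97 against the matched controls, and the SLN probes spread from −3.43 to −1.99 at the ISC level but only from −4.95 to −4.67 at the fused levels.

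Skeletal muscle genes were high on the array on which CASQ1 and SLN were highest. Of 23 fast skeletal muscle genes listed, 13 could be named. Their summed signal, in units of the 75th percentile of the array, was 28.2 at the ISC level and 28.1 in the L3/4 control. It was 15.0 at the fused levels and 870 in the L2/3 and L4/5 control. The fast troponin C gene TNNC2 dominates these sums. Its levels were 4.16 at the ISC level, 4.17 in the L3/4 control, 3.24 at the fused levels and 9.26 in the L2/3 and L4/5 control. All 6 defining skeletal muscle markers (ACTN3, MYL1, MYL11, TNNC2, TNNI2 and CKM) were well above background on all 4 arrays, so none was at background anywhere. CASQ1 at −5.52 between the controls lay near the median of −4.96 over the 11 fast muscle genes measured there, and SLN at −2.69 lay above their range of −6.17 to −3.64. CASQ1 and SLN were chosen by such ratios, so nothing is read from these places. In bulk tissue such as this, fewer muscle fibres and less RNA per fibre cannot be told apart. The part of the muscle RNA in these results was not tested.

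How CASQ1, CASQ2 and SLN lay beside the fast muscle genes differed by pair. At the fused levels all 13 fast muscle genes were lower by 2-fold or more than in the L2/3 and L4/5 control, beside 9.15% of all features. Their median was −5.73, with a range of −7.18 to −4.29. SLN at −4.87 lay inside that range and CASQ2 at −1.97 above it. At the ISC level all 12 measured were lower by 2-fold or more than in that control, beside 5.03% of all features. Their median was −4.94, with a range of −5.79 to −4.11. SLN at −5.03 again lay inside it, CASQ2 at −2.62 above it and CASQ1 at −5.80 just below it. PPP1R3A, not measured at the ISC level, had a bound of −6.69 in that pair. Of 10 measured on the ISC level and the L3/4 control, 1 was lower by 2-fold or more and 1 higher, beside 10.5% and 9.11% of all features, with a median of 0.13. A further 3 had bounds in that pair, MYOZ1 at 1.60, PYGM at 0.96 and PPP1R3A at −0.80. CASQ1, at −0.29, was within the measured range of −1.14 to 1.25, while CASQ2 at −3.11 and SLN at −2.33 were below it. Against the L3/4 control the fused levels had a median of −0.87 over 11 fast muscle genes, with a range of −1.51 to 0.57, and CASQ2 at −2.46 and SLN at −2.17 lay below the range. CASQ1, CASQ2 and SLN were chosen by such ratios, so nothing is read from their places beside these ranges. The ranges are those of the main scaling. With normexp background correction CASQ2 at the ISC level was at −1.10 to the L3/4 control. No test of these differences is possible with 1 array per group.

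Slow skeletal and cardiac muscle are sites where CASQ2 is known to be made, and few genes of that list could be measured. Only 6 of its 24 genes could be named, ATP2A2 and PLN among them, and TNNC1, the troponin C of slow and cardiac muscle, was well above background in the L2/3 and L4/5 control alone. Its level there was −0.50, and its values on the other 3 arrays were between −5.90 and −4.29, none well above background. NPPA, the atrial natriuretic peptide gene, was not well above background on any array. CKMT2, the mitochondrial creatine kinase of striated muscle, was at −4.42 at the fused levels and −4.71 at the ISC level against the L2/3 and L4/5 control. ANKRD1, a stress-induced ankyrin repeat protein of muscle, was lower by bounds of −5.42 and −5.65 in the same pairs. The summed signal of the list, which ATP2A2 and PLN dominate, was 9.67 at the ISC level and 10.9 in the L3/4 control, and 14.9 at the fused levels against 17.3 in the L2/3 and L4/5 control.

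Of 5 smooth muscle genes, 3 were lower by 2-fold or more at the ISC level than in the L3/4 control, beside 10.5% of all features, with a median of −1.04. These were MYH11, TPM2 at −1.16 and ACTA2 at −1.04, while CALD1 was at −0.69 and DES at 0.28. Of the same genes 1 of 5 was lower when the fused levels were set against the L2/3 and L4/5 control, beside 9.15% of all features, with a median of −0.07. That gene was DES, desmin, which skeletal muscle also makes, at −4.29. Against the L3/4 control 2 of 5 were lower at the fused levels, beside 12.9% of all features, MYH11 at −1.34 and TPM2 at −1.07. All 5 named genes of the 11 listed, 1 of which (DES) is also on the fast muscle list, were well above background on all 4 arrays. Their summed signal was 27.0 at the ISC level and 66.7 in the L3/4 control, and 38.7 at the fused levels against 38.1 in the L2/3 and L4/5 control. MYH11, the myosin heavy chain of smooth muscle, was at −2.19 at the ISC level against the L3/4 control and at −0.07 at the fused levels against the L2/3 and L4/5 control. CASQ2 was lower in both comparisons. The part of smooth muscle RNA in the CASQ2 ratios was not tested.

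Ligament markers were present on every array. TNMD, COL1A2, LUM and DCN could be named of 6 defining markers, and all 4 were well above background at the ISC level and in both controls. At the fused levels COL1A2, LUM and DCN were, while TNMD was not. The summed signal of the 7 named tendon and ligament genes of 17 listed was 742 at the ISC level and 627 in the L3/4 control, and 575 at the fused levels against 716 in the L2/3 and L4/5 control. COL1A2 and OGN (osteoglycin) dominate this sum. Single genes of the list moved more than the sum. Of 6 genes measured at the fused levels, 3 were lower by 2-fold or more than in the L2/3 and L4/5 control, beside 9.15% of all features, with BGN (biglycan) at −2.07, LUM at −1.36, CNMD (chondromodulin) at −1.01 and a list median of −0.81. TNMD was lower there by a bound of −1.73. At the ISC level 1 of 7 was higher by 2-fold or more than in the L3/4 control, BGN at 1.27, and 0 were lower. The shares over all features were 9.11% and 10.5%, so nothing is read from these counts. Blood and neutrophil genes had a summed signal of 439 at the ISC level and 790 in the L3/4 control, and 1433 at the fused levels against 277 in the L2/3 and L4/5 control.

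**Figure D3:**
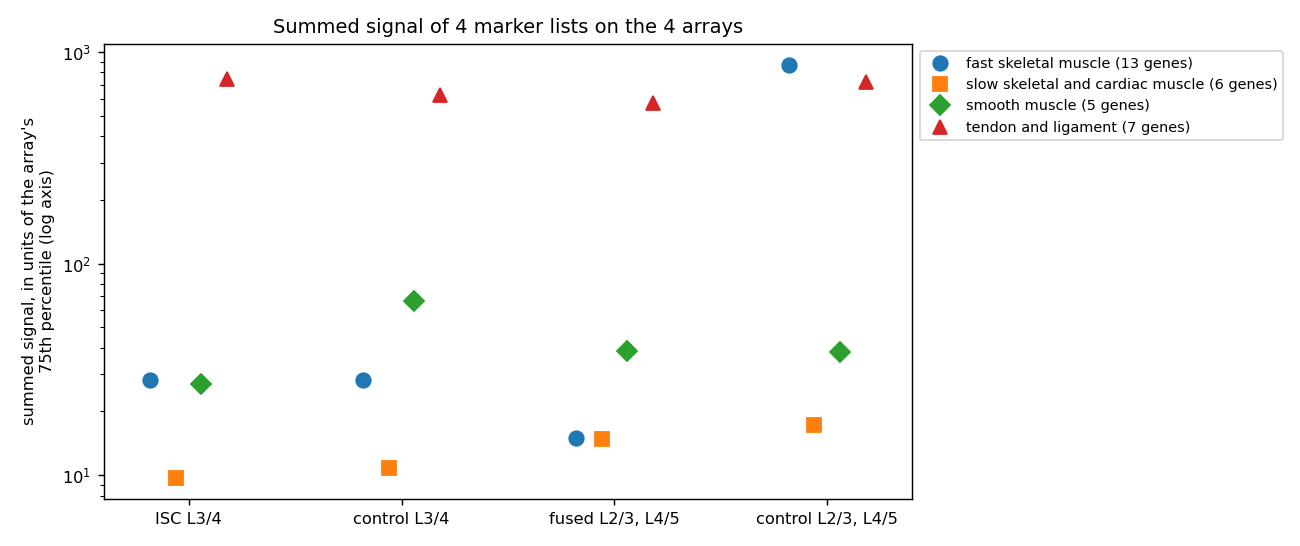
Summed signal of the named genes of 4 marker lists (y axis, in units of the 75th percentile of the array, log axis) on the 4 arrays (x axis). The fast skeletal muscle sum is 870 in the L2/3 and L4/5 control and between 15.0 and 28.2 on the other arrays, and the tendon and ligament sum is between 575 and 742.

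The other genes of calcium storage, release and uptake were looked up in a list of 57, of which 29 could be named and 26 passed background on 1 array or more. The list holds none of the 3 genes above. Of its named genes, ATP2A1 and PPP1R3A are also on the fast muscle list, and ATP2A2 and PLN on the slow skeletal and cardiac list. The counts of these lists are therefore not separate results. Among the pumps and their regulators, ATP2A1, the SERCA pump of fast skeletal fibres and the target of sarcolipin, had the same order of controls as SLN. Its levels were −2.59 at the ISC level and −1.79 in the L3/4 control, and −3.26 at the fused levels against 1.85 in the L2/3 and L4/5 control. The ratio was −0.80 at the ISC level, under 2-fold, with 9 measured probes between −0.99 and −0.37. At the fused levels it was −5.11, with 3 measured probes between −5.11 and −4.59.

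The pump of slow muscle, heart and other tissues behaved otherwise. ATP2A2 was at 0.28 at the ISC level against the L3/4 control and at 0.44 at the fused levels against the L2/3 and L4/5 control. Its 5 probes ranged from 0.06 to 0.76 at the ISC level. At the fused levels they ranged from −0.42 to 0.46, so the direction there depends on the probe. PLN, phospholamban, the inhibitor of that pump and a relative of sarcolipin, was at −0.77 at the ISC level and at 0.59 at the fused levels. Both were under 2-fold in these comparisons and well above background on all 4 arrays. The 7 PLN probes ranged from −1.88 to −0.56 at the ISC level and from −0.52 to 0.59 at the fused levels, so its direction at the fused levels depends on the probe. Against the fused levels, PLN at the ISC level was at −1.17, past 2-fold.

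The release channels did not move together in the fused comparison. RYR1, the ryanodine receptor of skeletal muscle with 1 probe, was at −4.95 at the fused levels against the L2/3 and L4/5 control. At the ISC level it was at least 2.43-fold higher than in the L3/4 control, where it was not well above background. RYR2, the cardiac receptor, was at −0.05 and 0.16 in the ISC and fused comparisons, and RYR3, the receptor of many tissues, at 0.50 and 0.75. RYR2 had 1 of 4 probes measured in the ISC comparison and 2 of 4 in the fused one. The 3 measured RYR3 probes ranged from −0.41 to 0.50 at the ISC level, so its direction there depends on the probe. At the fused levels they ranged from 0.12 to 0.91. FKBP1B, which binds the cardiac receptor, was not well above background on any array.

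Among the lumenal and triad proteins, SRL, sarcalumenin, a calcium-binding protein of the reticulum lumen, was at −4.75 at the fused levels. Only 1 of its 5 probes was measured in that pair. SRL was not well above background in the L3/4 control, and at the ISC level it was at least 1.20-fold higher, a bound under 2-fold. JPH1, a junctophilin that ties the reticulum to the surface membrane, was at −1.54 at the ISC level with 1 of 7 probes measured on both arrays. At the fused levels JPH1 was at least 12.1-fold lower. JPH2, the junctophilin of heart, was lower there by at least 2.86-fold and TRDN, triadin, which links calsequestrin to the ryanodine receptor, by at least 2.32-fold. TRDN was at −0.34 at the ISC level, with 1 of 5 probes measured on both arrays. HRC, a histidine-rich calcium-binding protein of the lumen, was at −0.67 and −0.39 and CALR, the calreticulin of non-muscle reticulum, at 0.13 and 0.03 in the ISC and fused comparisons.

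Over the list, 2 of 20 measured genes were higher by 2-fold or more and 1 lower by 2-fold or more at the ISC level against the L3/4 control, beside 9.11% and 10.5% of all features. The median was 0.05. The higher ones were CAMK2D, a calcium- and calmodulin-dependent kinase, at 2.12 and CACNA2D1, a subunit of voltage-gated calcium channels, at 1.03, and the lower one was JPH1. With normexp, or with the mean or median of a gene's probes, 0 measured list genes were lower by 2-fold or more. CACNA1C, the pore subunit of the calcium channel of heart and smooth muscle, was at least 2.17-fold lower, being well above background in the L3/4 control alone. CAMK2D, however, was at −0.46 to the L2/3 and L4/5 control, and CACNA2D1 at −0.86. At the fused levels 7 of 21 measured genes were lower by 2-fold or more and 1 higher, beside 9.15% and 7.82% of all features, with a median of −0.30. The lower ones were PPP1R3A at −5.73, ATP2A1, RYR1, SRL, SYPL2 at −3.76, CACNB1 at −2.71 and CACNA2D1 at −2.19. The value of PPP1R3A rests on 1 of its 3 probes. PPP1R3A targets a phosphatase to muscle glycogen, SYPL2 (mitsugumin 29) is a triad protein and CACNB1 is a subunit of the skeletal muscle calcium channel. The higher one was STIM2, a calcium sensor of the reticulum, at 1.11. A further 4, JPH1, JPH2, TRDN and CACNG1, were lower by bounds of at least 2-fold, and CACNG1, another subunit of that channel, by at least 5.38-fold. Against the L3/4 control the fused levels had 1 of 19 genes lower, ATP2A1 at −1.47, and 1 higher, CAMK2D at 1.85, beside 12.9% and 11.2% of all features. CACNA1C, CACNA2D1, CACNB1, CACNG1, CAMK2D, PPP1R3A, STIM2 and SYPL2 were named after their values were seen.

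Of the 18 list genes well above background on all 4 arrays, 0 were lower by 2-fold or more than both controls at both operated levels, beside 0.487% of all features, so nothing is read from that count. The control of L3/4 had 7 of 21 list genes lower by 2-fold or more than the L2/3 and L4/5 control and 0 higher, beside 9.2% and 8.38% of all features. ATP2A1 at −3.64, PPP1R3A at −5.88 and SYPL2 at −3.44 were among them.

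**Figure D4:**
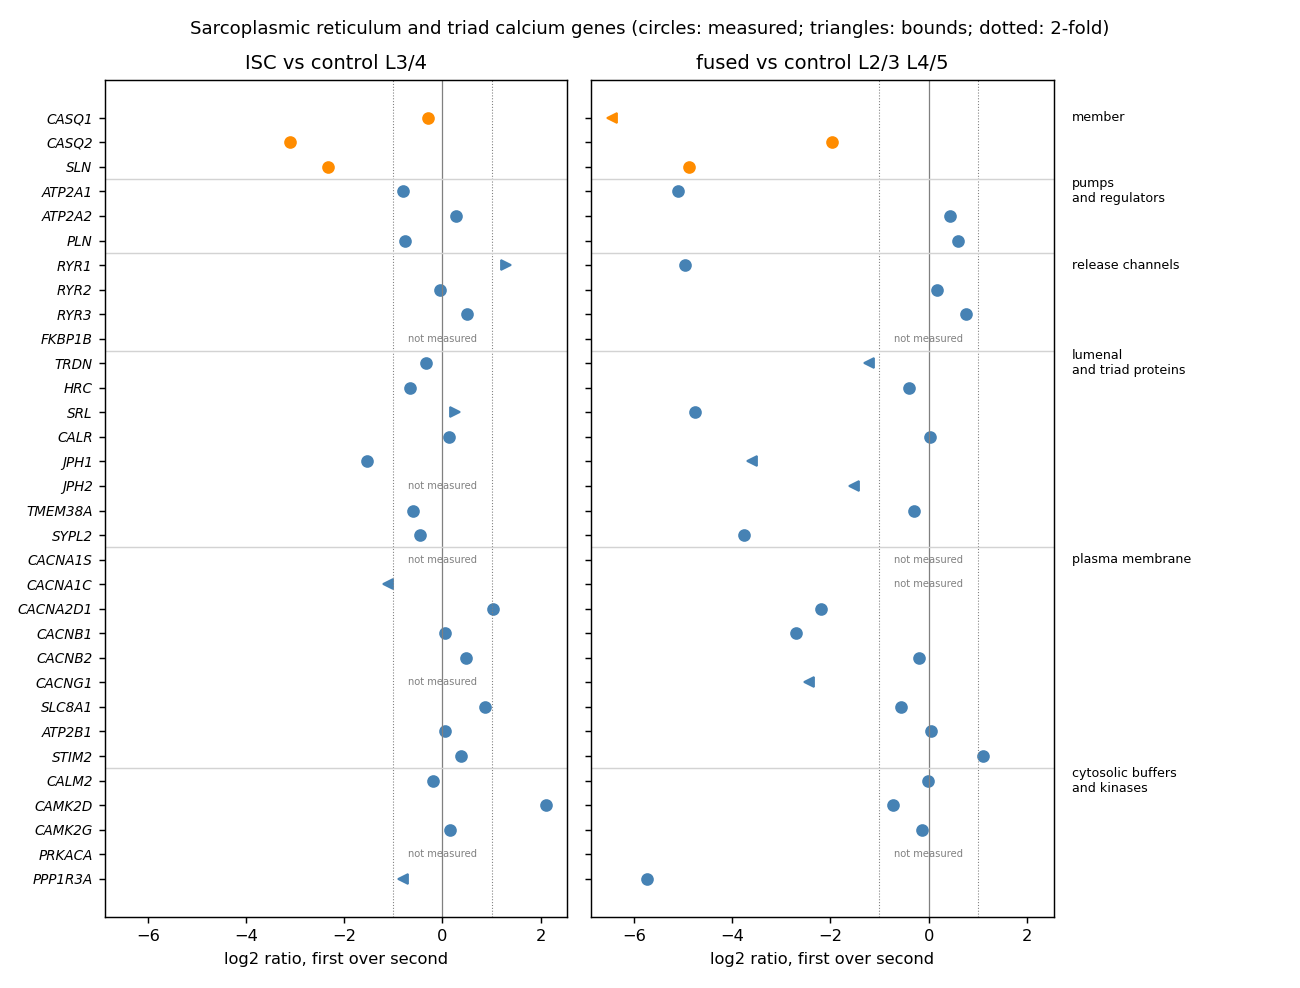
Log2 ratio (x axis, first array over second) of CASQ1, CASQ2 and SLN in orange and of the 29 named genes of the calcium list in blue (y axis, by role), with bounds as triangles and 2-fold as dotted lines. At the ISC level 1 of 20 measured list genes is lower by 2-fold or more, JPH1 at −1.54, and at the fused levels 7 of 21 are, from CACNA2D1 at −2.19 to PPP1R3A at −5.73.

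The named genes whose levels ran most like each of the 3 were found by the root mean square (RMS) difference of the gene-centred log2 levels over the 4 arrays, among 1199 named genes that passed background on 1 array or more. For CASQ1 the nearest were MYH13, a myosin heavy chain of extraocular muscle, at 0.50, the fast-fibre actinin ACTN3 at 0.78, the myosin light chain MYL1 at 0.94, the fast troponin C TNNC2 at 1.02 and ENO3 at 1.03. The median over all candidates was 3.13. For SLN they were TNNC1 at 0.40, the phosphoglucomutase PGM1 at 0.54, ATP2A1 at 0.55, JPH1 at 0.58 and MYH1, a fast myosin heavy chain, at 0.71, with a median of 2.05. Myosin heavy chain genes are close copies of each other, so the probes of MYH13 and MYH1 may take up RNA of related genes.

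For CASQ2 the genes reported as nearest were not on the fast muscle list. They were CCSER1 at 0.40, ITIH2 at 0.48, UGT2B14, a glucuronosyltransferase, at 0.55 and ITIH6 at 0.56, with a median of 1.34. ITIH2 and ITIH6 were well above background on all 4 arrays, CCSER1 on 2 and UGT2B14 on 1, so CCSER1 and UGT2B14 are partly matched on values at background. Likewise TNNC1, near SLN, was well above background on 1 array. Between CASQ2 and SLN the RMS difference was 1.26. CASQ1, MYH13 and JPH1 were each well above background on 3 of the 4 arrays, so the distances and order of the genes nearest to CASQ1 rest partly on a value at background. With 4 arrays these numbers only describe the arrays at hand.

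**Figure D5:**
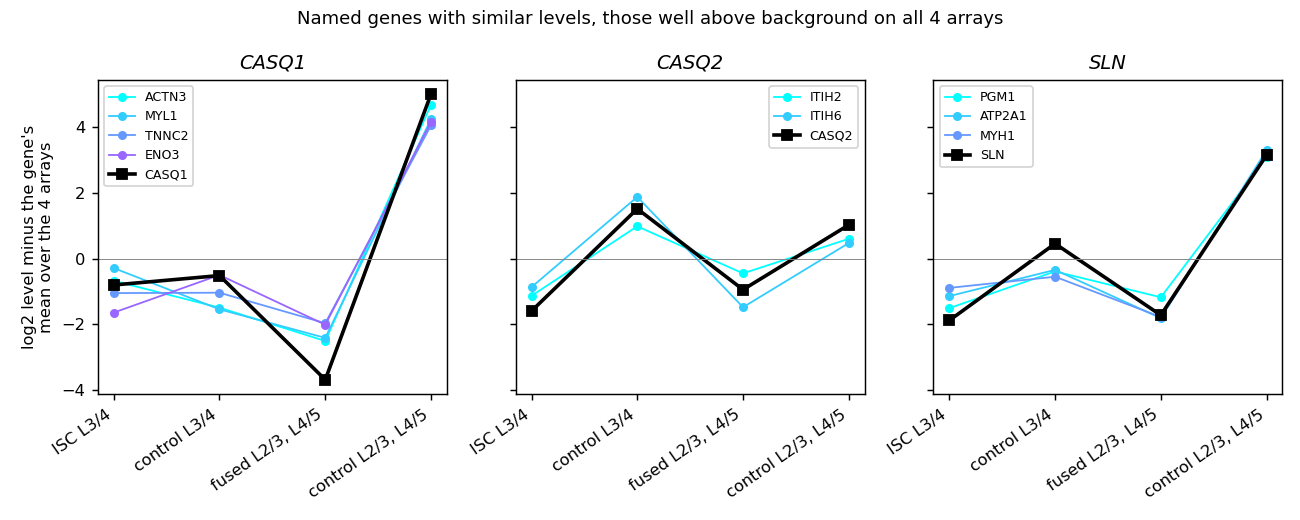
Log2 level minus the gene's mean over the 4 arrays (y axis) for CASQ1, CASQ2 and SLN (black squares) and those of their nearest named genes that were well above background on all 4 arrays (coloured circles), by array (x axis). Lines join the values of 1 gene, and the value of CASQ1 at the fused levels was not well above background. CASQ1 and its neighbours peak in the L2/3 and L4/5 control only, while CASQ2 and its neighbours are higher in both controls.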

How the data were processed

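Agilent Feature Extraction 12.0.3 is named in the submitters' processing notes. The deposited scanner files hold linear spot intensity, and per the file headers the processed signal was corrected for background and for a spatial trend on its own array, without scaling arrays to each other. Other columns, as deposited, mark spots as well above background, saturated or outliers.

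Log2 processed signal was computed here, control spots and 3 to 7 outlier spots per array were dropped, spots of a probe were averaged, and each array's 75th percentile was subtracted. The percentile ran from 53.4 in the L3/4 control to 93.8 at the ISC level. No spot was saturated. Repeated spots had a median SD of 0.116 to 0.148 on the log2 scale. Only the number of arrays sets the precision.

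The authors' deposited value table is linear intensity, the processed signal times 1 factor per array. How that factor was chosen stays unknown. Column medians were 516 (ISC level), 442 (L3/4 control), 498 (fused levels) and 504 (L2/3 and L4/5 control). The table was used as an alternative.

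RefSeq transcript accessions were named through a table of the assembly mOryCun1.1, which matched 3792 of 43603 probes. The array design uses another build, so coordinates are left out. Ensembl transcripts (24685 probes) have no name here and may include further probes of the 3 genes. A gene takes the value of its brightest probe. A bound sets the measured array against the other array's lowest signal that counts as above background, or the probe's own signal there if higher.

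Genes named are the 3 chosen, the first 12 detected calcium genes in order of role, and the 5 nearest to each by RMS difference, 1 of which is not reported here. The genes and lists were chosen with earlier results of these data known. Alternatives were quantile, cyclic loess and normexp normalization (limma 3.58.1, R 4.3.3), other centring, the authors' values, other summaries of probes, all spots kept, the other control, the mean of both controls, and other filters and fold sizes.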

Additional observations from a re-analysis of the deposited data

Results flagged for a closer look

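RYR1 and CACNA2D1 of the calcium list went opposite ways by at least 2-fold in the ISC and the fused comparison, and this difference between the comparisons was not tested. RYR1 was at 1.28 at the ISC level, a bound against an L3/4 control in which it was not well above background, and at −4.95 at the fused levels against the L2/3 and L4/5 control. CACNA2D1 was at 1.03 at the ISC level and at −2.19 at the fused levels, with both its probes of the same sign in each. Between the controls, RYR1 and CACNA2D1 were both lower at L3/4 than in the L2/3 and L4/5 control, RYR1 by a bound of −5.37 and CACNA2D1 at −1.88. The ISC and fused comparisons thus use unlike controls. Against the L2/3 and L4/5 control the ISC level was lower too, at −4.09 for RYR1 and −0.86 for CACNA2D1. Against the L3/4 control the fused levels were higher by a bound of 0.42 for RYR1 and at −0.31 for CACNA2D1.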

How the results depend on the processing

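SLN and CASQ2 at the ISC level, and SLN at the fused levels, kept their direction and stayed past 2-fold under all 11 alternatives, with ranges of −5.03 to −1.86, −3.19 to −1.10 and −4.94 to −2.17. CASQ2 at the fused levels was −0.72 with normexp on median spot signals and past 2-fold under the other 10. Of these, the median of the probes, at −2.50, is the value of A_04_P001542, not well above background on either array. At the ISC level the median, at −2.97, is also that probe's, not well above background on the ISC array. The mean of the CASQ2 probes takes in probes at background, and keeping all spots left the values unchanged. These settings are therefore not separate support for CASQ2. CASQ1 at the ISC level passed 2-fold only against the other control, at −5.80, and against the mean of both controls, at −3.04. CASQ1 at the fused levels was −0.92, a bound, against the other control and past 2-fold under the other 10. Of the calcium list, 1 gene was 2-fold lower at the ISC level, and 0 with normexp, 0 with the mean of the probes, 0 with the median of the probes, 0 at 3-fold, 3 with probes well above background on at least 1 of the arrays, 3 with no filter, 5 at 1.5-fold, 5 against the mean of both controls and 6 against the other control. At the fused levels 7 were lower, and 1 against the other control, 11 with probes well above background on at least 1 of the arrays and 12 with no filter. The cause of these changes was not tested, beyond the number of genes that a filter or fold size lets through. No paired analysis was possible because each group is 1 array. Normexp used median spot signals in place of means and added an offset of 50 to each, which narrows the ratios of dim probes. How much of the normexp changes comes from that offset was not tested. Where a probe was not well above background, as CASQ1 at the fused levels, the data give a bound and no level.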
